A study of Mus musculus with 386 samples.

Results

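The 4 gap junction genes Gja4, Gja1, Gjc1 and Gjb2 were followed in single female germ cells of the mouse. They were taken by symbol from a deposited table of 54658 genes, and all 4 were found, measured in each comparison of adjacent stages and kept. The cells were picked by hand from dissociated ovaries on embryonic day 17.5 (E17.5) and on postnatal days 2.5 (P2.5) and 6.5 (P6.5). Each library was made from 1 cell with Smart-seq2, which copies and amplifies polyadenylated RNA. No strain, genotype, treatment, animal, litter or pool is named in the labels. Each stage is therefore 1 sample of many cells, with 22 libraries at E17.5, 47 at P6.5 and the rest of the 386 at P2.5. No difference between stages was tested, and the intervals given with ratios cover the counting of reads only.

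Connexins are membrane proteins that assemble into channels. A channel in one cell docks with a channel in its neighbour to form a gap junction, through which ions, nucleotides, amino acids and other small molecules pass. In the mouse ovary the oocyte exchanges metabolites and signals with the granulosa cells around it by this route. The protein of Gja4 (connexin-37) is the main connexin of mouse junctions between oocyte and granulosa cells, and oocytes of mice without it do not complete growth. The protein of Gja1 (connexin-43) joins granulosa cells to one another. Gjc1 encodes connexin-45, known from the heart and blood vessels, and Gjb2 encodes connexin-26, known from the inner ear and the liver.

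Total gene counts ran from 1016746 to 16125066 per library at E17.5, from 435560 to 23982709 at P2.5 and from 5714357 to 15799302 at P6.5. At P2.5, 24 pairs of libraries differed by little more than sampling noise. Each such pair was summed as 1 cell, which left 362 cells over all stages. The median cell had 81.3 gene counts per spike-in count at E17.5, 464.9 at P2.5 and 3203 at P6.5. Summed germ cell markers (Ddx4, Dazl, Dppa3, Mael, Taf4b and Sycp3) had medians of 3228, 3876 and 5156 counts-per-million (CPM) at the 3 stages. They were low in E17.5 libraries 8, 10, 15 and 16, where they lay between 246.6 and 705.2 CPM. A cell was taken to hold the markers of a somatic cell type at 10 or more of their counts after thinning. By this rule 22 of 22 E17.5 libraries held markers of some type, and all of them held erythroid markers. Markers of some somatic type were also held by 49 P2.5 cells and 3 of 47 P6.5 cells. The E17.5 libraries also stood in 2 sets by their numbers. Of 26463 genes with a count in any E17.5 library, 471 had a count in each of libraries 1 to 10 and in none of 11 to 22, and 350 the reverse. The labels give no reason for this split, so the E17.5 results of the 4 genes, the family and the lists are also given by set. In E17.5 libraries 4 and 7 the deposited counts and FPKM values (fragments per kilobase of gene, scaled to library size) went apart. Gja4 had 10.8 CPM and 38.1 FPKM in library 4, against 11.9 CPM and 1.82 FPKM in library 7. For Gja4 the median over cells of all 3 stages was 1.58 CPM per FPKM.

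The bases just upstream of Gja4 and Gja1 are shown because these genes differed in opposite directions between P2.5 and E17.5. Each line gives the 250 bases before the RefSeq start of the gene on GRCm38.p6, on the gene's own strand, with any CANNTG (the E-box, bound by the oocyte factor FIGLA among many others) in capitals. The window of Gja4 lies at chr4:127314040-127314289 on the minus strand and that of Gja1 at chr10:56377050-56377299 on the plus strand.
Gja4: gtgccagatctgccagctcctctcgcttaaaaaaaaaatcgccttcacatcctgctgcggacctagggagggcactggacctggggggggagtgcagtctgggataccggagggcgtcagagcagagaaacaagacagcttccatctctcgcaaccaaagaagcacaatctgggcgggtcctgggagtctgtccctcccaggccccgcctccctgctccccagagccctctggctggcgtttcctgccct
Gja1: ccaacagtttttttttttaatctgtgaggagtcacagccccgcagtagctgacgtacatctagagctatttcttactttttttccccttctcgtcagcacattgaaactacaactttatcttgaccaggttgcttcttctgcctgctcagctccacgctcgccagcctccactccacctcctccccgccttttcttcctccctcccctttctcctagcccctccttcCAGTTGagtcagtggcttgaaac
CANNTG was found 0 times in the Gja4 window and 1 time in the Gja1 window, and 66.2% of 32851 promoter windows of this length hold it. TAATTG, the element bound by the oocyte factor NOBOX, was searched on both strands and found in neither window, against 7.17% of all windows. GC made up 61.2% of the Gja4 window and 50% of the Gja1 window.

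Gja4 was low in most cells before birth and was counted in every cell after it. The gene (ENSMUSG00000050234.7, chr4:127311421-127314039 on the minus strand of mm10 in GENCODE M21) overlaps no other annotated gene. Over 22 E17.5 libraries its lowest and median levels were 0 and 1.65 CPM, and the highest library held 948 counts of Gja4 among 6404446 gene counts. Its lowest, median and highest levels were 41.6, 286.3 and 849.2 CPM over the P2.5 cells, and 276.1, 441.6 and 605 CPM over 47 P6.5 cells. Each P6.5 cell lay above the highest E17.5 library, as did all but 17 of the P2.5 cells. In the summed counts Gja4 had 286.5 CPM at P2.5 and 11.3 CPM at E17.5, a log2 ratio of 4.67 (95% interval 4.60 to 4.74) or 25.4-fold. With 0.5 CPM added to both stages its ratio was above that of 98.6% of measured genes. P6.5 cells had 449.5 CPM, against 286.5 CPM at P2.5, and their log2 ratio was 0.65 (0.64 to 0.66) or 1.57-fold. P6.5 and P2.5 cells overlapped, since 20 P2.5 cells lay above the median P6.5 cell, and the P6.5 cell was the higher in 90.5% of all pairs. The coefficient of variation between cells was 265.7% at E17.5, 34.8% at P2.5 and 16.5% at P6.5. Per 1000 spike-in counts the median cell held 0.12 counts of Gja4 at E17.5, 129.1 at P2.5 and 1570 at P6.5.

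**Figure D1:**
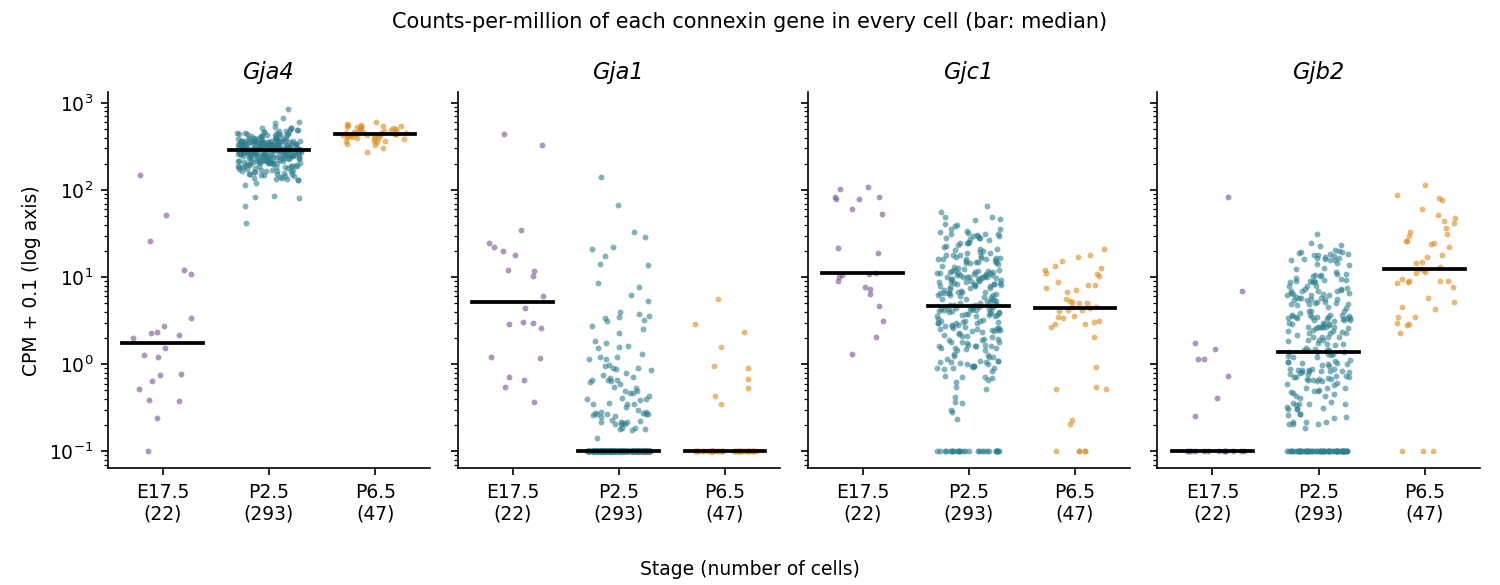
Level of each gene in every cell, as counts-per-million plus 0.1 on a log axis, by stage, with the number of cells in brackets and the median as a bar. In stage order, Gja4 had medians of 1.65, 286.3 and 441.6 CPM, Gja1 of 5.14, 0 and 0, Gjc1 of 11, 4.53 and 4.35, and Gjb2 of 0, 1.297 and 12.2.

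The low E17.5 level of Gja4 was carried by few libraries. Library 3, with its 948 counts, held 59.4% of the E17.5 counts of Gja4, followed by library 9 at 52.2, library 15 at 25.7, library 7 at 11.9 and library 4 at 10.8 CPM. The other 17 libraries had 3.31 CPM or less. Without library 3 the E17.5 sum was 4.80 CPM and the log2 ratio of P2.5 over E17.5 was 5.90. It was 3.79 against libraries 1 to 10 alone and 6.32 against libraries 11 to 22 alone.

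Gja1 went the other way. The gene (ENSMUSG00000050953.10, chr10:56377330-56402513 on the plus strand) had a count in 22 of 22 E17.5 libraries, in 92 P2.5 cells (31.4%, 95% Clopper-Pearson interval 26.1% to 37.1%) and in 10 of 47 P6.5 cells (21.3%, 10.7% to 35.7%). After each cell was thinned to 400000 gene counts these shares were 72.7%, 11.3% and 8.51%. The lowest, median and highest levels were 0.26, 5.14 and 435 CPM at E17.5. The median was 0 at both later stages, with a highest cell of 139.2 CPM at P2.5 and of 5.57 CPM at P6.5. Summed counts gave 1.61 CPM at P2.5 and 40.3 CPM at E17.5, a log2 ratio of −4.65 (−4.71 to −4.59) or 25-fold lower at P2.5. The later ratio compared 0.32 CPM at P6.5 with 1.61 CPM at P2.5 and was −2.32 (−2.58 to −2.07) by total counts, but 0.61 when scaled to spike-in counts. Without P6.5 cell 39, which held 36.4% of the P6.5 counts of Gja1, it was −2.94.

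Cells rich in granulosa cell markers held most of the Gja1 counts at E17.5 and P2.5. The list holds 14 genes, among them Foxl2, Amhr2, Fst, Wnt4 and Kitl. At P2.5 and P6.5 all 14 had a count in some cell, and at E17.5 all but Inhba did. At P2.5 the 13 cells with at least 10 granulosa marker counts per 100000 held 74% of all Gja1 counts. Their summed Gja1 level was 31.8 CPM, against 0.44 CPM in the other 280 cells. The summed marker level ran from 79.8 to 2926 CPM in the 13 cells and from 0 to 85.7 CPM in the 280. The 2 P2.5 cells highest in Gja1, with 139.2 and 66.7 CPM, held 2926 and 1020 CPM of granulosa markers beside 280.6 and 237.9 CPM of Gja4. At E17.5 the 12 libraries that reached this limit for granulosa markers held 88.2% of the Gja1 counts, at 76.2 CPM. The other 10 had 8.92 CPM of Gja1. At P6.5 cell 39 alone reached the limit, with 5.57 CPM of Gja1. The cell next-highest in Gja1, with 2.79 CPM, had 8.03 CPM of granulosa markers. Stroma markers varied with Gja1 too, with r of log2(CPM + 1) between Gja1 and the stroma sum at 0.69 over E17.5 libraries, 0.30 over P2.5 cells and 0.58 over P6.5 cells. Spearman's rho was 0.70, 0.12 and 0.13 in the same order. Without the P2.5 cells holding somatic markers, r at P2.5 was −0.007. The P2.5 cell highest in Gja1 had 1515 CPM of stroma markers. Libraries 19 and 16 stood apart with 435 and 327.9 CPM of Gja1 and 2310 and 1934 CPM of granulosa markers. The match was not complete, because library 18 had 2682 CPM of granulosa markers and 11.6 CPM of Gja1. Without library 16 the E17.5 sum of Gja1 was 24.1 CPM and the log2 ratio of P2.5 over E17.5 was −3.90. Without all cells holding granulosa markers this ratio was −4.36 and that of P6.5 over P2.5 was −1.05. The part of somatic RNA in the Gja1 counts was not tested.

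Gjc1 was counted in most cells of all 3 stages. The gene (ENSMUSG00000034520.14, chr11:102799579-102819700 on the minus strand) had a count in 22 of 22 E17.5 libraries, in all but 28 P2.5 cells (90.4%) and in 42 of 47 P6.5 cells. Its lowest, median and highest levels were 1.22, 11 and 107.5 CPM at E17.5. They were 0, 4.53 and 65.6 CPM at P2.5, and 0, 4.35 and 20.9 CPM at P6.5. All 3 stages overlapped between 1.22 and 20.9 CPM, and above that lay only E17.5 libraries and P2.5 cells. Summed counts gave 8.26 CPM at P2.5 and 36.2 CPM at E17.5, a log2 ratio of −2.13 (−2.18 to −2.09) by total counts and 0.27 when scaled to spike-in counts. The P6.5 sum was 5.59 CPM, against 8.26 CPM at P2.5, and the log2 ratio was −0.56 (−0.63 to −0.50) by total counts and 2.37 when scaled to spike-in counts. Single E17.5 libraries were either high or low. Libraries 3, 9, 11, 13, 17, 18, 20 and 21 had between 52.6 and 107.5 CPM, and the other 14 had 21.3 CPM or less. Against E17.5 libraries 1 to 10 alone the P2.5 ratio was −0.97, and against libraries 11 to 22 alone it was −2.67.

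Gjb2 was the late one of the 4 genes. The gene (ENSMUSG00000046352.7, chr14:57098600-57104702 on the minus strand) had a count in 9 of 22 E17.5 libraries, in all but 62 P2.5 cells (78.8%) and in 44 of 47 P6.5 cells. In stage order its medians were 0, 1.297 and 12.2 CPM and its highest values 83.5, 31.4 and 115.1 CPM. Summed counts gave 23.6 CPM at P6.5 and 4.47 CPM at P2.5. The log2 ratio was 2.40 (2.36 to 2.44) or 5.28-fold. With 0.5 CPM added that ratio was above that of 99.1% of measured genes. Of the P6.5 cells, 11 lay above the highest P2.5 cell, while 3 had no count. The ratio of P2.5 over E17.5 was 0.58 (0.44 to 0.73), from 4.47 CPM at P2.5 and 2.99 CPM at E17.5, and had no stable direction. Library 9 alone held 89.1% of the E17.5 counts, and without it the E17.5 sum was 0.34 CPM and the ratio 3.73. Against libraries 1 to 10 alone the ratio was −0.58, and in libraries 11 to 22 the gene had no count in any of the 12.

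By these ratios 1 of the 4 genes, Gja4, was at least 2-fold higher at P2.5 over E17.5, where 22.6% of all 17421 measured genes were. Gja1 and Gjc1 were at least 2-fold lower, as were 32.4% of measured genes, and Gjb2 was in between. From P2.5 to P6.5 Gjb2 was at least 2-fold higher, where 6.90% of 14643 measured genes were, and Gja1 at least 2-fold lower, where 9.30% were. The call for Gja1 ended without the 49 P2.5 and 3 P6.5 cells holding somatic markers, when Gja1 had 0.17 CPM at P6.5 and 0.31 CPM at P2.5 and its log2 ratio with 0.5 CPM added was −0.28. Measured genes are those that reached 1 CPM in one of the stages compared and were counted in 3 or more cells, and these counts use ratios with 0.5 CPM added. On that scale the median gene had a log2 ratio of −0.26 at P2.5 over E17.5 and −0.18 at P6.5 over P2.5. Relative to it Gja4 stood at 4.86 and 0.83, Gja1 at −4.02 and −1.18, Gjc1 at −1.81 and −0.34, and Gjb2 at 0.77 and 2.46. Scaling to spike-in counts moved all ratios up by 2.405 in the first comparison and 2.93 in the second.

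The E17.5 libraries differed by set in several connexin genes. Gjb2 had a count in 9 of the 10 libraries 1 to 10 and in none of the 12 others. Gja5, known from the heart atria and arteries, had no count in libraries 1 to 10 and one in 11 of libraries 11 to 22. Gja4 and Gja1 differed by set in level rather than in presence. The median of Gja4 was 2.98 CPM over libraries 1 to 10 and 0.60 CPM over libraries 11 to 22. Gja1 had medians of 1.10 and 15 CPM in these sets, and library 8 held 92% of its counts in libraries 1 to 10. Granulosa markers were counted in 2 libraries of the first set, 1 and 7, and in 10 of the second, so Gja1, these markers and the set cannot be told apart.

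**Figure D2:**
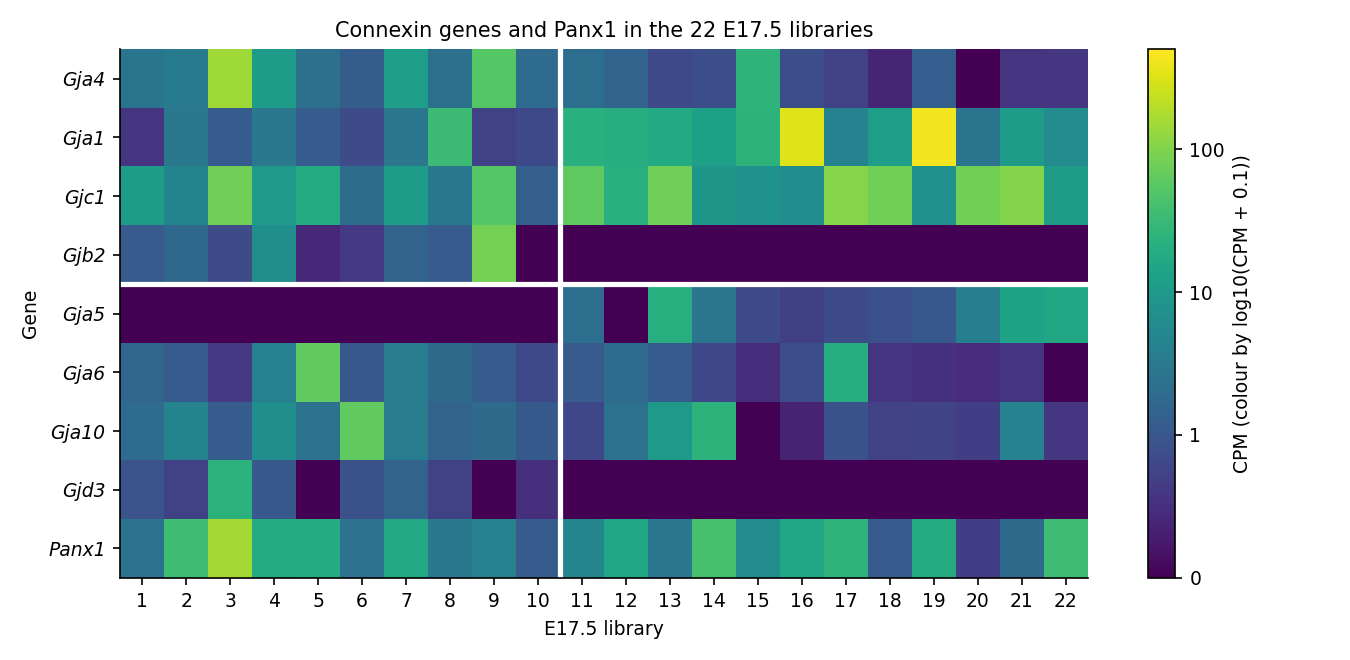
Level of 8 connexin genes and Panx1 in the 22 E17.5 libraries, in counts-per-million on a log colour scale, with a white line between libraries 10 and 11 and another below the 4 genes described here. Gjb2 is at 0 in each of libraries 11 to 22, Gja5 is at 0 in each of libraries 1 to 10, and Gja1 is highest in libraries 16 and 19.

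Set against each other per gene length, Gja4 was above Gja1 in each cell after birth and in some libraries before it. Mean FPKM values of Gja4 were 9.09 ± 22.5 at E17.5 (SD, n = 22), 184.4 ± 62.6 at P2.5 (SD over all cells of the stage) and 274.5 ± 45.4 at P6.5 (SD, n = 47). Those of Gja1 were 12.6 ± 32.5, 0.42 ± 2.58 and 0.085 ± 0.31. The ratio of Gja4 to Gja1 was thus 0.72 at E17.5, 436 at P2.5 and 3225 at P6.5, and without P6.5 cell 39 it was 6011 at that stage. In the 2 later stages Gja4 had the higher FPKM in every cell. Gja1 was listed at 0 in 39 of 47 P6.5 cells, and its median FPKM was 0 at P2.5 as well. A listed 0 did not always mean no count, since P2.5 cell 67 had 8.43 CPM of Gja1 and 0 FPKM. At E17.5 the order depended on the library. Gja4 was the higher in 10 of 22 libraries, of which 9 were among libraries 1 to 10, and Gja1 was the higher in 11 of libraries 11 to 22. The mean ratio was 13.3 in libraries 1 to 10 and 0.077 in libraries 11 to 22, and on the log2 scale it was −0.47 over all 22 libraries and −0.78 without libraries 4 and 7. Even the P2.5 cell with the smallest gap, on the log2 scale 1.32 with 0.1 FPKM added, had Gja4 above Gja1.

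**Figure D3:**
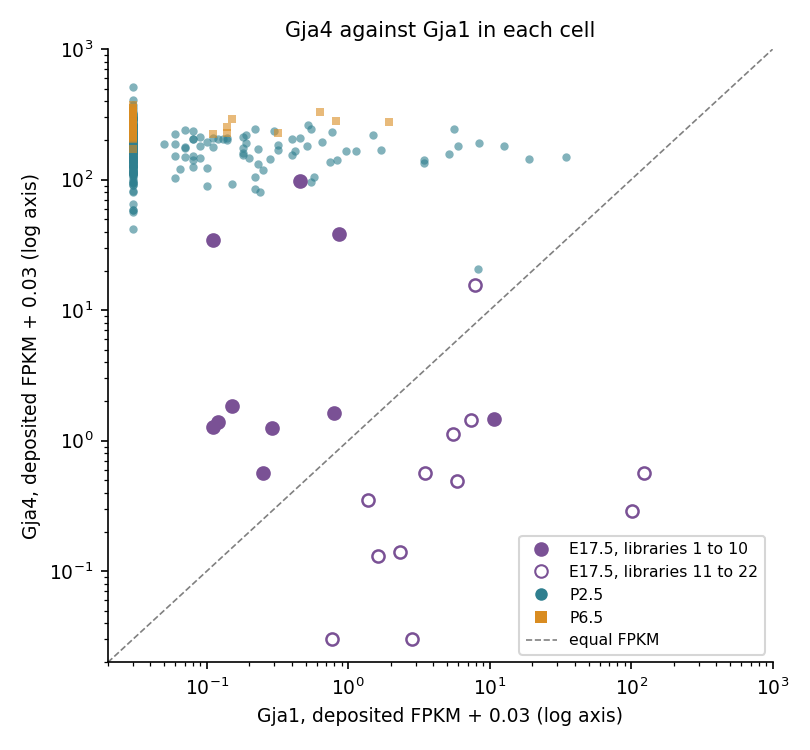
Deposited FPKM of Gja4 against that of Gja1, each with 0.03 added on log axes, 1 point per cell, with filled and open circles for the 2 sets of E17.5 libraries and a dashed line at equal values. All P2.5 and P6.5 cells lie above the line, while 9 of 10 libraries 1 to 10 lie above it and 11 of 12 libraries 11 to 22 below.

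Within the wider family Gja4 made up most of the connexin signal after birth. The deposited table holds 16 other connexin genes and 3 pannexin genes, and Gja4 made up 17% of the summed connexin FPKM at E17.5, 94.3% at P2.5 and 94.7% at P6.5. The E17.5 share was 39.4% in libraries 1 to 10 and 2.81% in libraries 11 to 22. Over all 22 libraries the order by mean FPKM was Gjc1 (18.7 ± 26.3), Gja1 and Gja4. In libraries 1 to 10 it was Gja4 (18 ± 31.6), Gjc1 (12 ± 15.8) and Panx1 (8.40 ± 17.1), with Gja1 at 1.35 ± 3.28. In libraries 11 to 22 Gjc1 (24.3 ± 32.3) and Gja1 (21.9 ± 42.4) led, with Gja4 at 1.69 ± 4.36. None of these gaps between neighbours exceeded the SDs of both genes. At P2.5 Gja4 was followed by the pannexin gene Panx1 (31.4 ± 18.7), Gjc1 (6.42 ± 10.7) and Gjb2 (1.495 ± 2.19), and the gaps between Gja4 and Panx1 and between Panx1 and Gjc1 exceeded the SDs of both genes, while that between Gjc1 and Gjb2 did not. At P6.5 the order was Gja4, Panx1 (59.5 ± 19.4), Gjb2 (9.03 ± 10.1) and Gjc1 (3.60 ± 6.14), and again the gaps on either side of Panx1 exceeded the SDs of both genes and that between Gjb2 and Gjc1 did not. The place of Gjc1 in these orders rests on FPKM values that went apart from its counts in single cells. P2.5 cell 30, for one, had 2.72 CPM and 25.31 FPKM of Gjc1. Panx1 encodes a channel of the plasma membrane that releases ATP. It had 75.1 CPM at P2.5 and 17.9 CPM at E17.5, a log2 ratio of 2.07 (2.01 to 2.12), and 95.2 CPM at P6.5. That ratio was 1.70 against E17.5 libraries 1 to 10, 2.45 against libraries 11 to 22 and 2.74 without library 3.

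The other connexin genes were mostly low and mostly lower after birth. Of 7 measured connexin genes outside the 4, 1 was 2-fold or more higher at P2.5 over E17.5 and 5 were 2-fold or more lower, where 22.6% of all measured genes were higher and 32.4% lower, with a median log2 ratio of −1.58 against −0.26 over all measured genes. With spike-in scaling 2 of the 7 were lower, against E17.5 libraries 1 to 10 alone 2 were higher and 4 lower, and against libraries 11 to 22 alone 2 were higher and 3 lower. The higher gene was Gja3, a connexin of the lens, with 1.74 CPM at P2.5 and no count at E17.5. The lower ones included Gja10, a connexin of the retina (0.46 CPM at P2.5 and 6.95 CPM at E17.5), Gja5 (0.56 and 2.90 CPM) and Gja6 (1.52 and 4.92 CPM). Gjd3 had 0.52 CPM at P2.5 and 1.26 CPM at E17.5, of which library 3 held 86.5% of the counts, and without it the E17.5 level was 0.18 CPM. Gja10 had 63.3% of its E17.5 counts in library 6 and 2.74 CPM without it. Gja6 had 58.1% in library 5 and 2.16 CPM without it, where its ratio with 0.5 CPM added was −0.40 and no longer 2-fold. The annotations of Gja5, Gja6 and Panx2 each overlap another gene, so reads of these genes could be shared. From P2.5 to P6.5 only 3 of the 16 were measured. Gjb1, a connexin of the liver and of Schwann cells, was higher with 1.69 CPM at P6.5 and 0.23 CPM at P2.5, and its log2 ratio was 2.85 (2.69 to 3.02). Gja3 was lower with 0.61 CPM, against 1.74 CPM at P2.5.

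**Figure D4:**
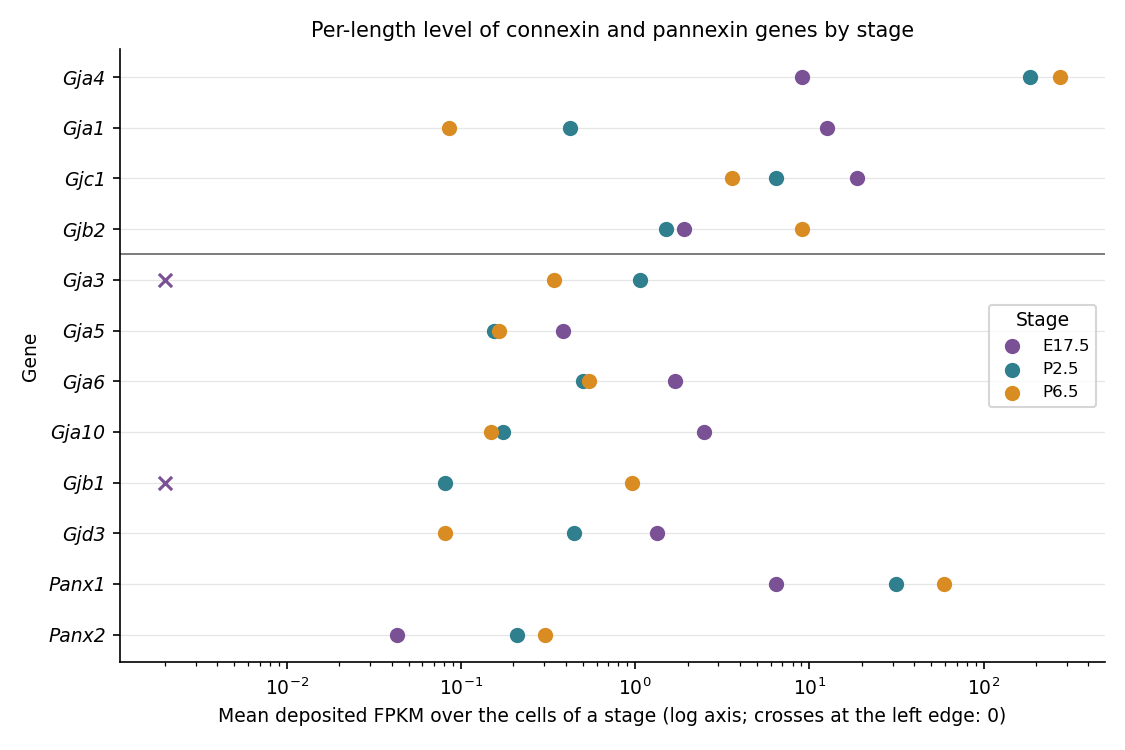
Mean deposited FPKM over the cells of each stage on a log axis for the 4 genes (above the line), 6 other connexin genes and 2 pannexin genes with at least 1 CPM at some stage, with a cross at the left edge for a mean of 0. Gja4 lies farthest to the right at P2.5 and P6.5, at 184.4 and 274.5, and Panx1 comes next at 31.4 and 59.5.

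Genes whose proteins handle connexins were compared as a list of 10, all measured. At P2.5 over E17.5, 1 was at least 2-fold higher and 5 lower (22.6% and 32.4% of all measured genes), with a median log2 ratio of −1.23, against −0.26 over all measured genes. Either E17.5 set alone gave 1 higher and 5 lower as well, but the higher one was not always the same gene. Against libraries 1 to 10 it was Cav1, the gene of the membrane coat protein caveolin-1, which had no count in that set. With 0.5 CPM added the log2 ratio of Cav1 was 2.26 there and −2.59 over all libraries, and that of Cnst was 0.61 there. Over all libraries the higher one was Cnst, whose protein consortin delivers connexins to the cell surface (27.96 CPM at P2.5 and 12.1 CPM at E17.5, log2 ratio 1.204, 1.14 to 1.27). The lowest ratios were those of Src, a kinase that phosphorylates connexin-43 (1.35 and 22.1 CPM, −4.03), and Nedd4, a ubiquitin ligase that binds it (25.6 and 294.3 CPM, −3.52). Erp29, an endoplasmic reticulum chaperone of connexin-43, was level at 93.8 and 94.6 CPM. From P2.5 to P6.5 none was 2-fold higher and 1 was lower (6.90% and 9.30% of all measured genes). The lower one, named after its values were seen, was Cav1, with 0.022 CPM at P6.5 and 1.89 CPM at P2.5. Its top cell held 88.9% of the P6.5 and 58.9% of the P2.5 counts, and without these cells it had 0.0025 CPM at P6.5 and 0.78 CPM at P2.5. Among genes that reached 5 CPM the differences were within 2-fold. Nedd4 had 43.5 CPM at P6.5 and 25.6 CPM at P2.5 (0.76), Cnst 34.7 and 27.96 CPM (0.31), and the scaffold gene Tjp1 42.3 and 56.01 CPM (−0.41). Ubqln4, which binds connexin-43 for degradation, had 23.2 CPM at P6.5 and 23.3 CPM at P2.5.

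A list of 16 genes covered the cyclic nucleotide signals that hold the oocyte in meiotic arrest, in which cyclic GMP reaches the oocyte through gap junctions. Of 15 measured, 4 were at least 2-fold higher and 3 lower at P2.5 over E17.5 (median −0.46), near the 22.6% of all measured genes that were higher and below the 32.4% that were lower. Libraries 1 to 10 alone gave 4 higher and 2 lower, and libraries 11 to 22 alone 5 higher and 3 lower. Gpr3, the receptor that keeps cyclic AMP high in the oocyte, had 24.96 CPM at P2.5 and 0.28 CPM at E17.5 (6.46, 6.02 to 6.95). Pde3a, the oocyte phosphodiesterase that cyclic GMP inhibits, had 37.6 and 2.96 CPM (3.67, 3.53 to 3.81). Npr2, the receptor of cumulus and granulosa cells that makes cyclic GMP, was lower with 1.04 CPM at P2.5 and 9.98 CPM at E17.5 (−3.27), as was the adenylyl cyclase gene Adcy3 with 2.32 and 14.7 CPM (−2.66). From P2.5 to P6.5, 1 of 15 was higher and 1 lower (median −0.13), near the 6.90% and 9.30% of all measured genes. Gnas, the stimulatory G protein, had 17.3 CPM at P6.5 and 2.52 CPM at P2.5 (2.78, 2.73 to 2.83), and Pde3a 71.5 and 37.6 CPM (0.93). The lower one was Adcy3, with 0.88 CPM at P6.5 and 2.32 CPM at P2.5 (−1.405). Among genes that reached 5 CPM, Impdh2, an enzyme of guanine nucleotide synthesis (140.2 and 224.4 CPM, −0.68), and Prkar1a, a regulatory subunit of protein kinase A (181.8 and 286.9 CPM, −0.66), had the lowest ratios.

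A list of 8 genes held transporters and secreted factors of oocyte and granulosa exchange. Of 6 measured at P2.5 over E17.5, 4 were at least 2-fold higher and 1 lower (median 1.97), where 22.6% and 32.4% of all measured genes were. Libraries 1 to 10 alone gave 3 higher and 1 lower, and libraries 11 to 22 alone 4 higher and 1 lower. Gdf9, an oocyte factor that acts on granulosa cells, had 407.8 CPM at P2.5 and 7.19 CPM at E17.5 (5.83, 5.74 to 5.92). Slc6a9, a glycine transporter, had 142.5 and 10.2 CPM (3.799). The glucose transporter gene Slc2a1 had 39.9 and 27.1 CPM (0.55), and the amino acid transporter gene Slc7a6 was lower with 23.3 CPM at P2.5 and 128.5 CPM at E17.5 (−2.46). From P2.5 to P6.5, 4 of 7 were higher and none lower (median 1.07), where 6.90% and 9.30% of all measured genes were. Gdf9 had 2145 CPM at P6.5 and 407.8 CPM at P2.5 (2.40), and Bmp15, its partner, 72.3 and 17.4 CPM (2.06, 2.03 to 2.08). Slc7a6 had 23.97 and 23.3 CPM, and Kit, the oocyte receptor for granulosa Kit ligand, 1114 and 1495 CPM (−0.42).

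Several of these P2.5 over E17.5 ratios rested on the E17.5 libraries used. Against libraries 1 to 10 alone the ratio of Cnst was 0.62 and that of Npr2 −1.25, and against libraries 11 to 22 alone they were 1.95 and −3.95. Pde3a had no count in libraries 11 to 22 and a ratio of 2.51 against libraries 1 to 10. Without the library that held most of the E17.5 counts, the ratio was −2.90 for Src (library 10), 8.28 for Gpr3 (library 19), 4.68 for Pde3a (library 3), −2.04 for Npr2 (library 16) and 4.54 for Slc6a9 (library 3). The ratio of Cav1 was −2.88 over all libraries and −1.43 without library 16. The other list genes named for P2.5 over E17.5 moved by less than 1.5 times without their top library.

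The variation of Gja4 between cells of a stage was set against measures of the cell. Correlations of log2(CPM + 1) across cells are given as descriptions, since all values of a cell share its library and depth and the cells share an unknown number of animals. Over P2.5 cells Pearson's r of Gja4 was 0.05 with total gene counts, −0.14 with the number of genes counted and 0.13 with gene counts per spike-in count. It was 0.20 with the summed CPM of 16 oocyte growth genes such as Gdf9, Zp2, Zp3 and Padi6. It was −0.21 with the summed erythroid markers, −0.08 with Gja1, −0.04 with Gjc1 and −0.03 with Gjb2. Among the 47 P6.5 cells r was 0.46 with the growth sum and 0.02 with gene counts per spike-in count. Taken singly, 13 of the 16 growth genes had a positive r with Gja4 at P2.5 (median 0.10) and 13 at P6.5 (median 0.31). The share of all genes with a positive r was not computed, so these counts do not set growth genes apart from others. With the germ cell marker sum r of Gja4 was −0.12 at P2.5 and 0.38 at P6.5. Gjb2 had r of 0.25 with the growth sum at P2.5 and 0.17 at P6.5, and at P2.5 it had 0.32 with the number of genes counted. Gja1 had r of 0.43 with the summed granulosa markers at P2.5 and 0.42 at P6.5, with Spearman's rho at 0.23 and 0.07. Without the 49 P2.5 cells holding somatic markers its r was 0.09.

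**Figure D5:**
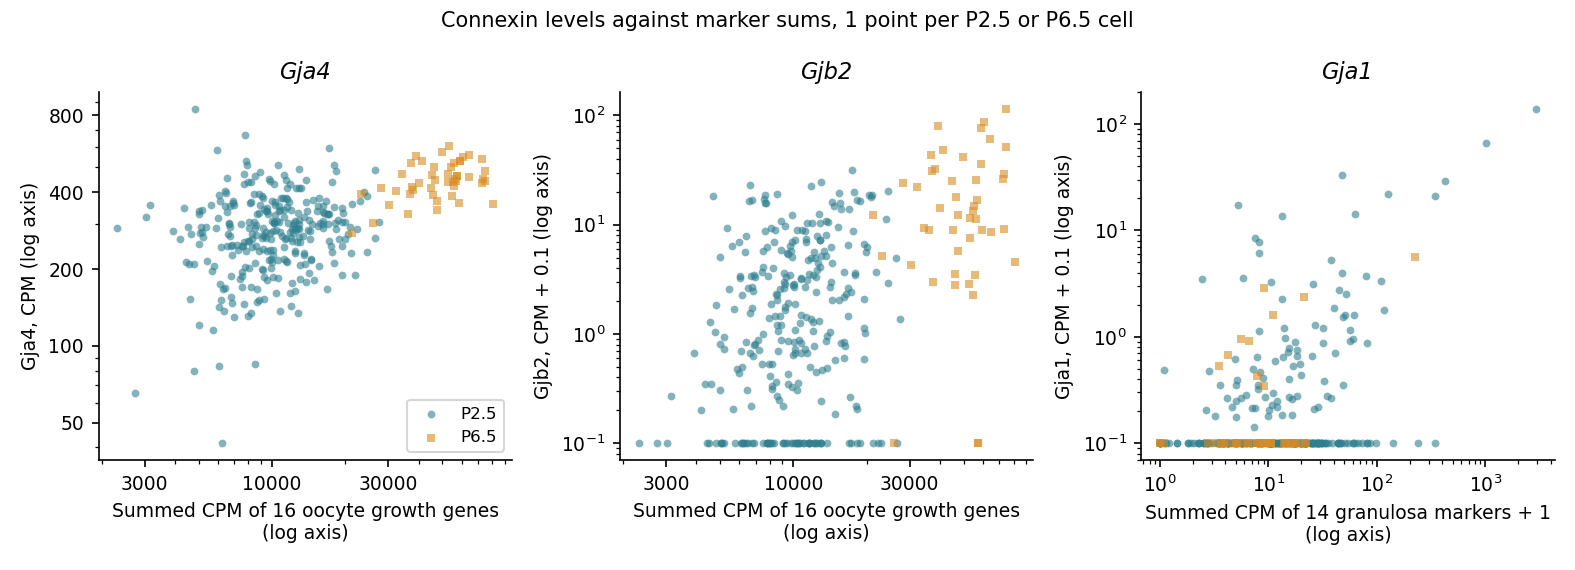
Level of Gja4 and Gjb2 against the summed level of 16 oocyte growth genes, and of Gja1 against that of 14 granulosa markers, in counts-per-million on log axes (0.1 added to Gjb2 and Gja1, and 1 to the granulosa sum), 1 point per P2.5 or P6.5 cell. Gja4 has r of 0.20 with the growth sum among P2.5 cells and 0.46 among P6.5 cells, and the highest Gja1 value, 139.2 CPM, is in the cell with the highest granulosa sum, 2926 CPM.

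The 5 genes most like Gja4 across P2.5 cells, of 9732 that reached 5 CPM and were counted in 50% of cells, were Gsta4 (r = 0.45), Ooep (0.44), Fam110c (0.44), Kat8 (0.42) and Ski (0.42). The median gene had r of −0.002. Ooep belongs to the subcortical maternal complex of the oocyte, Gsta4 is a glutathione transferase and Kat8 a histone acetyltransferase. Among P6.5 cells r stayed positive for Ooep (0.69), Kat8 (0.61), Gsta4 (0.26) and Fam110c (0.26) and was −0.22 for Ski. At the other end, chosen after the values were seen, the 4 lowest were Ddah1 (r of −0.43 at P2.5 and −0.20 at P6.5), the synaptonemal complex gene Sycp1 (−0.42 and −0.53), Sh3glb2 (−0.41 and −0.20) and the RNA export gene Nxf2 (−0.395 and −0.65). The genes most like Gja1, of 11833 that reached 1 CPM and were counted in 10% of P2.5 cells, were Cxcl10 (0.64), Dmrta1 (0.54), Emp3 (0.54), Axl (0.54) and Myc (0.53), each under 4 CPM in the P2.5 sum. The highest r with Gjb2 was that of Col6a3 (0.37), followed by Vrtn (0.35), Tubb6, Tmem150a and Aspg (0.34 each), and the highest with Gjc1 were those of Wwc2, Notch2, Nceh1, Plpp1 and Phactr4 (each 0.24).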

How the data were processed

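Germ cells picked by hand from ovaries at 3 stages were profiled as single cells, per the labels, by Smart-seq2 followed by a KAPA HyperPlus library kit. The authors deposited raw gene counts in one table and FPKM values in another. FPKM is scaled by library size and gene length, but the deposited values did not always follow the deposited counts. P2.5 cell 67, for one, had 8.43 CPM but 0 FPKM of Gja1. Both tables have 1 column for each library, 22 at E17.5, 317 at P2.5 and 47 at P6.5. The submitters' processing notes name STAR 2.7.10b, HTSeq 0.13.5, RSEM 1.3.3 and mm10. The role of each tool, the annotation, the strand setting and the treatment of multi-mapping reads were not given in the sources used here. Members and gene lists were chosen with earlier results of these data known.

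The count table holds 54750 rows, of which 92 spike-in rows stayed out of library sizes. A pair of libraries, each the closest to the other, was summed as 1 cell where the median chi-square per gene was under 1.5 (over genes whose summed count reached 20), which turned 386 libraries into 362 cells, 293 of them at P2.5. The highest value among the summed pairs was 1.03 and the next pair stood at 2.31. Doublets were not called, since cells were picked by hand. Counts of the cells of a stage were summed and scaled to CPM, and log2 ratios carry an exact conditional Poisson 95% interval. These intervals cover counting error only, because reads here carry no molecular identifiers and are not independent molecules. Shares of cells carry Clopper-Pearson intervals. No test was made, since each stage is 1 sample. A cell held markers of a somatic type with at least 10 counts of its list after thinning to 100000 gene counts. Levels of different genes were compared by deposited FPKM only. The ratio and 2-fold steps recovered known fold changes in data simulated from the stage sums. This checks the calculation only, since stage sums hold no spread between libraries. Named were the 4 genes, other family genes with at least 1 CPM at some stage, and up to 2 genes at either end of the ratio per partner list and comparison among those with at least 5 CPM. Some family genes under this rule are not reported here. Like genes were the 5 with the highest Pearson r. Gene positions are from GENCODE M21 and promoter windows from RefSeq on GRCm38.p6, the assembly of mm10, and RefSeq promoter entries matched 3 of the 4 genes, Gjc1 being the other one. Alternatives were other scalings (TMM from edgeR 4.0.16), FPKM, other pseudocounts, other sets of libraries and cells left out. Python 3.11.15 with numpy 2.4.6, pandas 2.3.3 and scipy 1.17.1 was used.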

Additional observations from a re-analysis of the deposited data

How the results depend on the processing

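No paired analysis was possible because each stage is 1 sample and the results come from no test. What limits these values is the lack of named animals, the 22 E17.5 libraries with their 2 sets, and depth, since 1 count is worth 0.16 CPM in the median E17.5 library and 2.30 CPM in the shallowest P2.5 cell. The alternatives that leave out cells with granulosa markers, take either E17.5 set for the lists or for Gja4 over Gja1, drop libraries 4 and 7, leave out single cells, or vary the E17.5 libraries for other named genes were chosen after seeing the data.

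Log2 ratios of P2.5 over E17.5 are given for Gja4, Gja1, Gjc1 and Gjb2 in that order, against 4.67, −4.65, −2.13 and 0.58 in the report. They were 5.03, −4.28, −1.77 and 0.95 with TMM, 4.89, −4.42, −1.91 and 0.81 with median-of-ratios and 7.07, −2.24, 0.27 and 2.99 with spike-in scaling. Mean FPKM gave 4.34, −4.89, −1.55 and −0.35, and the mean of CPM over cells 4.56, −4.81, −1.998 and −0.24. Without the E17.5 libraries low in germ cell markers they were 4.46, −3.92, −2.59 and 0.13, and without cells holding granulosa markers 4.06, −4.36, −1.60 and −0.29. Libraries 1 to 10 alone gave 3.79, −2.58, −0.97 and −0.58, and libraries 11 to 22 alone 6.32, −5.34 and −2.67, with no value for Gjb2, which has no count there. With 0.5 CPM added Gja1 had −4.27 and Gjc1 −2.07. Gja4 without library 3 had 5.90, Gja1 without library 16 −3.90 and Gjb2 without library 9 3.73. Gjb2 thus had no fixed sign, while Gja4 and Gja1 kept theirs in every setting run. The −2.58 of Gja1 against libraries 1 to 10 rested on library 8, which is low in germ cell markers. It held 92% of the Gja1 counts of that set, with 34.7 CPM, and the next-highest library had 2.95 CPM. That set was not run without library 8. The median library of the set had 1.10 CPM of Gja1, below the 1.61 CPM of the P2.5 sum. The negative sign against this set thus rested on library 8.

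For P6.5 over P2.5 the report gives 0.65, −2.32, −0.56 and 2.40. TMM gave 0.89, −0.33 and 2.64 for Gja4, Gjc1 and Gjb2, and median-of-ratios 0.99, −1.98, −0.23 and 2.74 for all 4. Spike-in scaling gave 3.58, 0.61, 2.37 and 5.33, so that Gja1 and Gjc1 took the other sign, and for P6.5 over E17.5 it turned Gjc1 to 2.64. Mean FPKM gave 0.57 for Gja4, −0.83 for Gjc1 and 2.60 for Gjb2, and the mean of CPM 0.63 for Gja4 and 2.63 for Gjb2. With 0.5 CPM added Gja1 had −1.36 and Gjb2 2.28. Without cells holding somatic markers Gja1 had −0.89 and Gjb2 2.31, without those holding granulosa markers Gja1 had −1.05, and without P6.5 cell 39 it had −2.94. As all E17.5 libraries hold somatic markers, leaving such cells out gives no E17.5 value. The log2 ratio of Gja4 over Gja1 was 10.63 at P2.5 and 12.96 at P6.5 without such cells, against 8.77 and 11.66. Gjd3 at P2.5 over E17.5 had −1.29 over all libraries and 1.53 without E17.5 library 3.

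The counts of list members shifted most with spike-in scaling. At P2.5 over E17.5 it left 2 connexin genes lower, and made 2 pannexin genes higher, 5 partner genes higher and 2 lower, 12 arrest genes higher and 0 lower, and 0 supply genes lower. At P6.5 over P2.5 it made 3 connexin, 1 pannexin, 9 partner, 15 arrest and 7 supply genes higher, and 0 connexin and 0 arrest genes lower. With 2 CPM added 0 connexin genes were higher and 2 lower at P2.5 over E17.5, and at P6.5 over P2.5 0 connexin genes were higher and 0 connexin, 0 partner and 0 arrest genes lower. At P6.5 over P2.5 TMM and median-of-ratios scaling each left 0 connexin and 0 arrest genes lower and 2 arrest genes higher, and median-of-ratios 1 partner gene higher. Libraries 1 to 10 alone gave 2 connexin genes higher, and libraries 11 to 22 alone 2 higher and 3 lower. Of 150 such list counts, 120 kept within 1.5 times the value reported.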

Other observations

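One P2.5 cell stood apart in both Gja4 and Gja1. It was chosen after its values were seen and had the lowest Gja4 level of the stage (41.6 CPM) and the third-highest Gja1 level (32.7 CPM). It held 3014 CPM of germ cell markers, against a stage median of 3876, and 46.4 CPM of granulosa markers. Its 65.8 gene counts per spike-in count lay below the stage median of 464.9.

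The E17.5 libraries highest in CPM of Gja4, also singled out after their values were seen, were not alike in other respects. Libraries 3 and 9, with 97.6 and 34.7 FPKM of Gja4 (library 4 had 38.1 FPKM but 10.8 CPM), held 1534 and 690.6 CPM of the 16 oocyte growth genes and 78.1 and 52.6 CPM of Gjc1. Library 15, with 25.7 CPM of Gja4, held 30.5 CPM of growth genes and 246.6 CPM of germ cell markers, the lowest of the stage. Library 5 held 1320 CPM of growth genes with 2.19 CPM of Gja4. Gjb2 reached 83.5 CPM in library 9 and 0.62 CPM in library 3. Over all 22 libraries r of Gja4 was 0.64 with the growth sum (Spearman's rho 0.66) and 0.59 with Gjb2 (rho 0.72). Gja4 and Gjb2 also differed between the 2 sets of libraries, so these values cannot be told apart from the set.

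At P6.5 the 3 cells without a Gjb2 count (39, 40 and 43) had 461.7, 462.3 and 302.8 CPM of Gja4. Cell 39 had the highest Gja1 level of the stage (5.57 CPM), with 224.3 CPM of granulosa and 630.8 CPM of stroma markers. Of single growth genes, Oas1d had the highest r with Gja4 among P6.5 cells (0.71, n = 47), and 0.30 among P2.5 cells (all cells of that stage).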
